A study of Mus musculus with 8 samples.

Results

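The nuclear genes of oxidative phosphorylation were followed in the bulk transcriptomes of murine TFCOs (organoids grown from thyroid follicular cells), thyroid tissue and lung tissue. Members were the rows of the normalized count table whose symbol starts with NDUFA, NDUFB, NDUFC, NDUFS, NDUFV, UQCR or ATP5, or with COX followed by a digit from 4 to 8, and the NDUFAF assembly factors were left out. This gave 65 of 16119 genes, and all 65 were among the 14703 genes tested (a normalized count of 10 or more in 2 libraries or more). They comprised 7 core and 29 accessory genes of complex I, 8 genes of complex III, 18 genes of complex IV and 3 genes of complex V. NDUFA4 and its relative NDUFA4L2 were counted with complex IV, of which NDUFA4 is a subunit. The β subunit and the c ring genes of ATP synthase, COX8B and COX8C are not analysed here.

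The 8 libraries came from wild type C57BL/6 mice and fall into 4 groups of 2. TFCOs of the lines mThy14 and mThy16 were taken at early and at late passage (where the study describes its PCR it sets early at fewer than 4 passages and late at more than 6), so both passage groups hold the same 2 lines, which were derived from surplus female mice. All TFCOs grew in basement membrane extract in a mouse expansion medium with R-spondin 3 conditioned medium, A83-01, forskolin, EGF and FGF10, and no treatment was applied. Thyroid tissues 1 and 2 and lung tissues 1 and 2 were whole tissue, which also holds vessels, stroma and neighbouring cells, and the labels give no age and do not say whether 2 tissues of a group came from different animals. In bulk RNA, fewer cells of a type and less RNA per cell cannot be told apart.

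Oxidative phosphorylation takes place in the inner mitochondrial membrane. Complex I accepts electrons from NADH, complex III passes them from ubiquinol to cytochrome c, and complex IV hands them to oxygen, while the protons pumped on the way drive ATP synthase, complex V. Most subunits are encoded in the nucleus and a few in the mitochondrial genome. Several subunits of complex IV exist as isoform pairs, with one form found in most tissues and a partner enriched in tissues such as heart and skeletal muscle, lung or testis.

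The isoform pair COX6A1 and COX6A2 carries the clearest difference between TFCOs and thyroid tissue, so stretches of both coding sequences are shown. COX6A1, the form found in most tissues, lies on chromosome 5 (chr5:115345642-115348981, minus strand), and COX6A2, the heart and muscle form, on chromosome 7 (chr7:128205435-128206387, minus strand) of GRCm38 in GENCODE M21. Both are protein-coding genes of 3 exons. The stretches run to the last codon before the stop, from base 97 of 336 for COX6A1 and from base 52 of 291 for COX6A2. Capitals mark the longest run of bases that the 2 coding sequences share.
COX6A1: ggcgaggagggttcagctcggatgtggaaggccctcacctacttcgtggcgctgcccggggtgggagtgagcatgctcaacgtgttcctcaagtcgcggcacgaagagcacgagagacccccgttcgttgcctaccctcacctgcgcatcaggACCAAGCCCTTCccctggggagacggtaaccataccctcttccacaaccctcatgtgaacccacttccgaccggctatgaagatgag
COX6A2: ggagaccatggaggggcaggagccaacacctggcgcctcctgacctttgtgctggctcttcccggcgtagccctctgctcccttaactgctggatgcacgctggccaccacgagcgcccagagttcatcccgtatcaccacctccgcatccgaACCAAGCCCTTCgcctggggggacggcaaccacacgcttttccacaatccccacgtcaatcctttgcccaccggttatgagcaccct
The shared run was 12 bases long. Of 287 aligned coding bases, 191 were identical (66.55%), and the COX6A2 transcript shared no 50-base stretch with any other gene, against 12.26% of such stretches of COX6A1. Of all 65 members, 28 shared at least 1 such stretch with another gene's transcripts and 37 shared none, and the share was above 50% for COX7C (52.95%) and NDUFA12 (53.77%). Counts of members that share stretches are uncertain where reads of near-identical copies could be split between genes.

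Promoters of the members were searched for 4 motifs of factors known to regulate respiratory genes. RefSeq gave promoter sequences of 52 members and of 12507 genes of the table. The core of the nuclear respiratory factor 1 (NRF1) motif, GCGCATGC, was found on either strand in 6 of the 52 (11.54%) against 4.573% of all 12507. The YY1 core AAGATGGC was in 8 (15.38%) against 3.766%, the ETS motif CCGGAAG bound by GABPA in 10 (19.23%) against 14.46%, and the ESRRA motif CAAGGTCA in 1 (1.923%) against 1.111%. A match is a description of these letters and not a binding site. The 180 bases before the start of COX6A1 (chr5:115348959-115349138, minus strand, GRCm38.p6) and of COX7A1 (chr7:30183991-30184170, plus strand) are shown as an example of a promoter with matches and of one without. Capitals in COX6A1 mark 2 overlapping NRF1 cores, 162 and 160 bases before the start, and an ETS match on the opposite strand, 16 bases before it. These starts are those of RefSeq and lie 23 (COX6A1) and 27 (COX7A1) bases inside the GENCODE genes, so the last bases of each window, the ETS match included, fall within the gene as GENCODE gives it.
COX6A1 promoter: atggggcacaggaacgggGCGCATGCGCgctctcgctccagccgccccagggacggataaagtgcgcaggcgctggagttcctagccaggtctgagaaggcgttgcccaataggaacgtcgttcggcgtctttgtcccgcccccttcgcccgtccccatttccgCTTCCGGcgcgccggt
COX7A1 promoter: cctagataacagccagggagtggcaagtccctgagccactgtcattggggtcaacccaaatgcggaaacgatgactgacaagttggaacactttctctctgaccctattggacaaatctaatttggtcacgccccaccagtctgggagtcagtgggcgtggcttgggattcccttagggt
COX7A1, the heart and muscle form of a pair with COX7A2, held none of the 4 motifs in this window.

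The 8 libraries held 9755081 to 16904865 reads on genes, as computed from the step between values in each column. Their labels fitted the defining genes of the tissues. The 6 thyroid follicular genes of the marker list made up 12.3% and 17.6% of the normalized counts in thyroid tissues 1 and 2, 0.172% to 1.24% in TFCOs and at most 0.0243% in lung, and the 4 lung epithelial genes 8.60% and 4.39% in lung against at most 0.160% elsewhere. The libraries stood in 2 sets that cross their labels. These sets were known from earlier results of the same data and are not named in the sample titles. Counts of members that follow them describe the sets and do not test them. One held the 4 TFCO libraries and thyroid tissue 1, and the other held thyroid tissue 2 and both lung tissues. TFCOs can therefore be compared within a set only with thyroid tissue 1, and lung only with thyroid tissue 2. Between TFCOs and lung, set and tissue cannot be told apart.

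Many members followed the library sets. The mean of TFCOs and thyroid tissue 1 was at least 10-fold below the mean of the other 3 libraries for 17 of 65 members, against 8.07% of all genes tested, and at least 10-fold above it for 1 member, COX7B2, against 7.92%. All 5 libraries of the first set lay below all 3 of the other set for 31 of 65 members (20.3% of all genes) and above them for 6 (23.3% of all genes). The 17 members came from every complex, with 1 core and 7 accessory genes of complex I, 2 of complex III, 6 of complex IV and 1 of complex V. The following examples were chosen after their values were seen. NDUFV2, an iron-sulfur subunit at the NADH entry of complex I, had 0.00 (mThy14) and 8.91 (mThy16) normalized counts at early passage, 0.00 and 5.59 at late passage and 4.35 in thyroid tissue 1, but 1901 in thyroid tissue 2 and 1287 and 882 in lung. NDUFV1, its partner in the same module, had 2564 and 1954 at early passage, 2397 and 1831 at late passage, 4621 in thyroid tissue 1, 2064 in thyroid tissue 2, and 1236 and 938 in lung. The partners thus showed opposite orders between the thyroid tissues, with thyroid tissue 2 above thyroid tissue 1 for NDUFV2 (log2 difference 8.47) and below it for NDUFV1 (-1.16). UQCR11, a small subunit of complex III, had 5.94 to 9.84 in TFCOs and 6.53 in thyroid tissue 1 against 1888 in thyroid tissue 2 and 1059 and 762 in lung. NDUFC2 of the membrane arm of complex I was counted with 0 or 1 read in each TFCO library and 4 in thyroid tissue 1, but with 1417 in thyroid tissue 2 and 1703 and 1144 in lung.

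**Figure D1:**
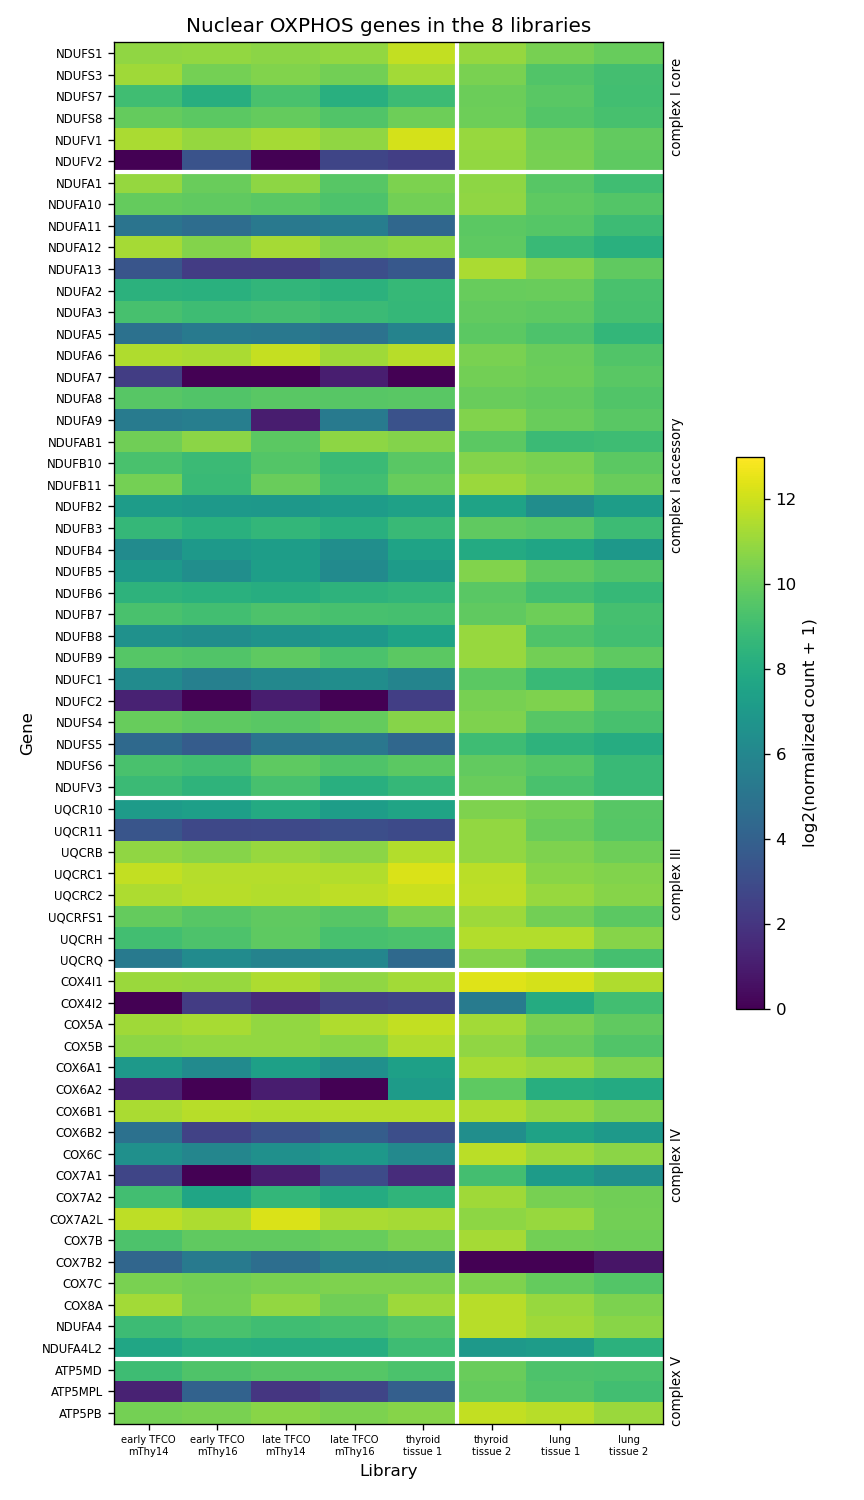
Levels of 64 of the 65 members (rows, by complex) in the 8 libraries (columns) as log2(normalized count + 1), on a color scale from dark (0) to yellow. The vertical white line separates TFCOs and thyroid tissue 1 from thyroid tissue 2 and lung. Rows such as NDUFV2, NDUFC2 and UQCR11 are dark in all 5 libraries left of it and bright in all 3 right of it.

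The thyroid tissues lie in different sets, so the difference between them is given here. With 1 thyroid library per set, the set and other differences between these tissues cannot be told apart. Their marker sums of other cells also differed (below). Thyroid tissue 2 was above thyroid tissue 1 for 48 members and below for 17, with a median log2 difference of 1.06 over members against -0.07 over all genes tested. The values ran from -5.58 for COX7B2 to 10.22 for NDUFA7. All comparisons below are therefore given within a set first.

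Within their set, TFCOs lay below thyroid tissue 1 for most members. The mean of the 2 lines was below thyroid tissue 1 for 48 of 65 and above for 17, with a median log2 difference of -0.32 (1.25-fold lower; quartiles -0.64 and 0.01) against 0.02 over all genes tested. Without NDUFA7, which had 3 reads or fewer in each library of the set, the median was -0.34. All 4 TFCO libraries lay below thyroid tissue 1 for 31 of 65 members, against 25.9% of all genes, and above it for 4 members, COX7A2L, NDUFA3, NDUFA11 and UQCRQ, against 25.8%. Together the members took 0.437% to 0.456% of the normalized counts of a TFCO library, 0.580% in thyroid tissue 1, 0.831% in thyroid tissue 2, and 0.608% and 0.458% in lung. Only 1 library stands for the tissue here, so no spread between thyroid tissues enters a test of this difference. With the library set as a term in the fit, which compares TFCOs with thyroid tissue 1, limma called 0 members higher and 1 lower, COX6A2, against 0.184% and 1.03% of all genes, and 5 of 65 members had an unadjusted p under 0.05 against 17.4% of all genes.

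The core of complex I, which carries the flavin and iron-sulfur clusters, was the group of members with the lowest median. Complex II (-0.66) and the TCA cycle (-0.92), whose genes are not members, had lower medians. For all 7 core genes the TFCO mean lay below thyroid tissue 1, with a median of -0.64 (1.56-fold lower). In 5 of them all 4 TFCO libraries lay below the tissue, against 25.9% of all genes. One of the 7, NDUFV2, was near 0 in every library of the set, and both mThy16 libraries lay above the tissue. The largest difference was that of NDUFV1, the flavin-binding subunit, at -1.09 (standard error 0.36, limma adjusted p = 0.222 with the set as a term), or 2.13-fold lower. NDUFS1, another iron-sulfur subunit, had 1833 and 1910 normalized counts at early passage, 1707 and 1878 at late passage and 3540 in thyroid tissue 1. The TFCO libraries did not overlap the tissue, and the log2 difference was -0.95 (standard error 0.32, limma adjusted p = 0.232). NDUFS3 of the ubiquinone module differed by -0.64. The 29 accessory genes of complex I had a median of -0.26, with 20 below and 9 above thyroid tissue 1. NDUFS4, an accessory subunit needed for the assembly of the NADH module, differed by -0.82, and NDUFB8 of the membrane arm by -0.92. NDUFA3 lay on the other side, with 463 to 585 in TFCOs against 396 in thyroid tissue 1.

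Complex III had a median of -0.29, with 5 of 8 genes below thyroid tissue 1. UQCRC1, a core protein of the complex that faces the matrix, had 3629 and 2959 normalized counts at early passage, 2987 and 2862 at late passage and 4922 in thyroid tissue 1. All 4 TFCO libraries lay below the tissue, by 1.59-fold on the mean log2 scale. The other core protein, UQCRC2, the Rieske iron-sulfur protein UQCRFS1 and the ubiquinone-binding protein UQCRB also lay below the tissue in all 4 libraries, with log2 differences of -0.41, -0.63 and -0.71. UQCRQ differed in the other direction, with 38.0 to 75.3 in TFCOs against 20.7 in thyroid tissue 1 (log2 difference 1.40, limma adjusted p = 0.262). It was counted with 19 reads in thyroid tissue 1 and with 843 to 1687 in the other set.

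Complex IV had a median of -0.44, with 14 of 18 genes below thyroid tissue 1. COX4I1, the regulatory subunit found in most tissues, had 2101 and 2018 at early passage, 2667 and 1809 at late passage and 2360 in thyroid tissue 1. The TFCO libraries lay on both sides of the tissue. COX5A and COX5B had log2 differences of -0.60 and -0.64, and for both all 4 TFCO libraries lay below the tissue. COX6B1 and COX7C differed little, by -0.05 and -0.11. COX7A2L, known for its part in joining complexes III and IV, was the member of complex IV with all 4 TFCO libraries above thyroid tissue 1, at 2587 to 4863 against 2406.

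Of complex V, ATP5PB, the peripheral stalk subunit b, had 1231 to 1640 normalized counts in TFCOs and 1613 in thyroid tissue 1, a log2 difference of -0.22. ATP5MD, a small subunit of the membrane part, had 505 to 778 against 630, a difference of 0.09. For neither gene did all 4 TFCO libraries fall on 1 side of the tissue. ATP5MPL, another small membrane subunit, was counted with 1 to 16 reads in TFCOs and 13 in thyroid tissue 1.

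**Figure D2:**
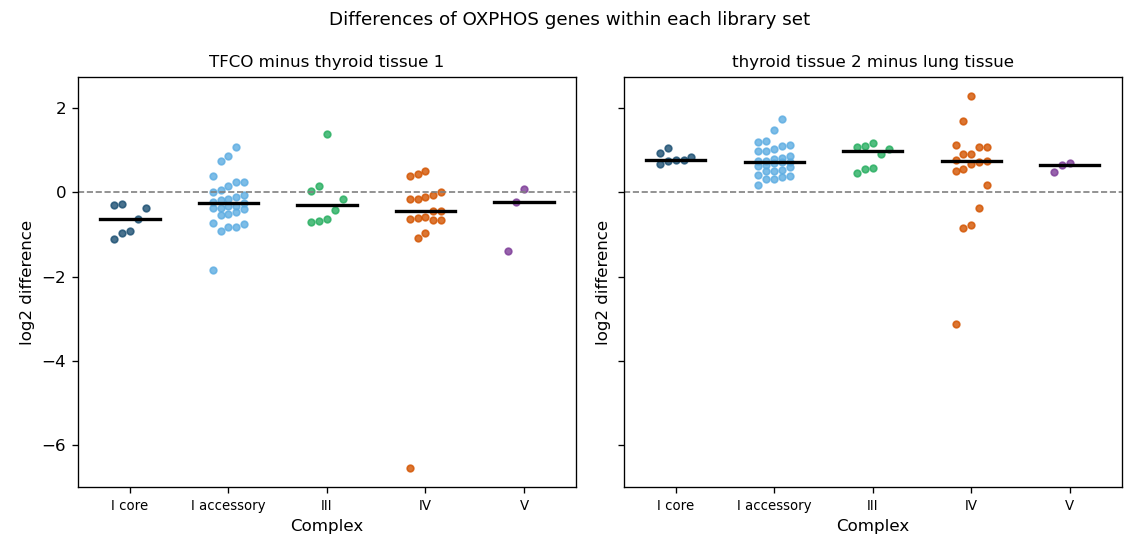
Log2 differences of the 65 members within each library set, by complex (points, genes; black bars, medians; dashed line, median of all genes tested). Left, mean of the TFCO lines minus thyroid tissue 1, where all 7 core genes of complex I lie below 0 and the lowest point of complex IV is COX6A2 at -6.55. Among the core genes, NDUFV2 has few reads in this set. Right, thyroid tissue 2 minus the mean of lung, where 61 of 65 members lie above 0 and COX4I2 is lowest at -3.12.

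In the other set, thyroid tissue 2 was above lung for nearly the whole list. It lay above both lung tissues for 57 of 65 members against 38.9% of all genes tested, and below both for 3, COX4I2, COX6B2 and NDUFA4L2, all of complex IV, against 38.8%. The median log2 difference was 0.74 (1.67-fold; quartiles 0.54 and 1.04) against 0.00 over all genes, and 0.74 without COX7B2, which had at most 1 read in each of these libraries. Medians were 0.78 for the core of complex I, 0.73 for its accessory genes, 0.97 for complex III, 0.74 for complex IV and 0.66 for complex V. The core genes kept within a narrow range, from 0.69 to 1.06. NDUFB8 had 2020 in thyroid tissue 2 and 684 and 535 in lung (log2 difference 1.74). COX7A1 had 550 in thyroid tissue 2 and 137 and 90.3 in lung (2.29). With the library set as a term, limma called 0 members higher and 0 lower at adjusted p under 0.05, against 2.62% and 3.02% of all genes, and 16 of 65 members had an unadjusted p under 0.05, close to the 21.7% of all genes. The smallest adjusted p of a member was 0.0677, for NDUFB8.

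The heart and muscle isoform COX6A2 was the member that TFCOs and thyroid tissue differed in most. It had 1.41 and 0.00 normalized counts at early passage, 1.04 and 0.00 at late passage, 138 in thyroid tissue 1, 868 in thyroid tissue 2, and 286 and 245 in lung. The 4 TFCO libraries together held 2 reads, so the ratio of thyroid tissue 1 to TFCOs was 247, with a 95% exact (Clopper-Pearson) interval from 67.1 to 2064 that covers counting error only. COX6A2 was called lower against both thyroid tissues (log2 fold change -7.87, standard error 1.04, limma adjusted p = 0.0124) and against thyroid tissue 1 with the set as a term (-6.55, standard error 0.74, limma adjusted p = 0.0420). The fit with the set as a term took its spread from the TFCO lines and the lung tissues, and none from thyroid tissue. The fitted values depend on the pseudocount of 1 and are no bound on the fold. Over 16 alternatives the limma adjusted p for thyroid tissue ran from 0.00163 to 0.0618, and the call was lost without lung tissue 1 (0.0543), without lung tissue 2 (0.0537) and without both (0.0618). COX6A1 had 125 and 73.3 at early passage, 169 and 91.7 at late passage and 164 in thyroid tissue 1, against 2482 in thyroid tissue 2 and 2128 and 1414 in lung. Its values in TFCOs and thyroid tissue 1 overlapped.

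Between TFCOs and thyroid tissue, markers of other cells differed in the same direction as COX6A2. In lung, where COX6A2 was also above TFCOs, the fibroblast, adipocyte and endothelial marker sums were above them too. The skeletal muscle sum was below TFCOs there. The 8 skeletal muscle markers summed to 0.0187% to 0.0279% of the counts in TFCOs, 0.489% in thyroid tissue 1, 1.43% in thyroid tissue 2, and 0.00625% and 0.0117% in lung. All 8 lay above the 4 TFCO libraries in thyroid tissue 1, against 25.9% of all genes. Of the 8, limma called 6 lower in TFCOs than in thyroid tissue, against 3.05% of all genes. The creatine kinase CKM had 0.990 to 16.9 in TFCOs, 7235 and 21984 in thyroid tissue, and 175 and 392 in lung. CKM was thus above TFCOs in lung, unlike the sum. The sum in TFCOs, 2550 to 3355 normalized counts, came mostly from other markers of the list. Against lung, limma called 4 of the 8 higher and 2 lower in TFCOs, against 9.83% and 13.5% of all genes. The fast myosin MYH4 had 0.00 and 2.70 in lung. COX6A2 was counted there with 342 and 364 reads. The brown fat markers UCP1 and CIDEA together took at most 0.000307% in TFCOs and 0.0193% and 0.0150% in thyroid tissue. The 3 fibroblast markers took at most 0.00154% in TFCOs, 0.166% and 0.153% in thyroid tissue and 0.114% and 0.219% in lung. Other neighbours of the follicle were likewise near 0 in TFCOs. The 2 C cell markers took at most 0.000107% in TFCOs, 0.181% and 0.289% in thyroid tissue and at most 0.000403% in lung, and the 3 parathyroid markers at most 0.000198%, 0.0774% and 0.206%, and at most 6.51e-05% in lung. The 5 adipocyte markers took at most 0.000420% in TFCOs, 0.0180% and 0.0891% in thyroid tissue, and 0.0416% and 0.00581% in lung. The 3 endothelial markers took 0.00111% to 0.00342% in TFCOs, 0.0140% and 0.0459% in thyroid tissue, and 0.135% and 0.285% in lung. Called lower in TFCOs than in thyroid tissue were 1 of 2 C cell, 2 of 3 parathyroid, 2 of 5 adipocyte and 2 of 3 endothelial markers, against 3.05% of all genes. With the set as a term these counts were 2, 2, 2 and 0, against 1.03% of all genes. The part of these cells in the differences of the members was not tested.

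The other pairs of complex IV differed between the sets, between thyroid and lung, or both. COX4I2, a form of COX4 abundant in lung, had 0.00 and 3.96 at early passage, 2.08 and 4.47 at late passage and 5.44 in thyroid tissue 1, then 41.5 in thyroid tissue 2 and 250 and 543 in lung. Lung was above thyroid tissue 2 by 8.70-fold on the log2(value + 1) scale, in the opposite direction to COX4I1, at 5186 in thyroid tissue 2 and 4521 and 2766 in lung. COX7A1 had 0.00 to 6.71 in TFCOs and 2.18 in thyroid tissue 1, and COX7A2 202 to 536 in TFCOs and 363 in thyroid tissue 1, against 2306 in thyroid tissue 2 and 1291 and 1157 in lung. COX6B2, a form known from testis, had 4.95 to 28.1 in TFCOs and 7.62 in thyroid tissue 1, against 83.9 in thyroid tissue 2 and 178 and 129 in lung. COX7B2 was the reverse of these, with 18.3 to 44.7 in TFCOs, 46.8 in thyroid tissue 1, and 0.00, 0.00 and 0.674 in the other 3 libraries. Its ratio of the first set to the other was 134, with a 95% exact interval from 23.7 to 5322 from 160 reads against 1. Its partner COX7B had 665 to 1003 in TFCOs, 1356 in thyroid tissue 1, 2407 in thyroid tissue 2, and 1185 and 1101 in lung. COX8A had 1149 to 2375 in TFCOs, 2161 in thyroid tissue 1, 3128 in thyroid tissue 2, and 2043 and 1370 in lung.

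NDUFA4 and NDUFA4L2, a pair in which the second is known to rise under low oxygen, also took different courses. NDUFA4 had 474 and 610 at early passage, 525 and 584 at late passage, 737 in thyroid tissue 1, 3116 in thyroid tissue 2, and 2269 and 1666 in lung. NDUFA4L2 had 208 and 282 at early passage, 260 and 273 at late passage, 500 in thyroid tissue 1, 127 in thyroid tissue 2, and 147 and 324 in lung. Both genes were lower in all 4 TFCO libraries than in thyroid tissue 1, by 1.35-fold and 1.96-fold. Between the thyroid tissues they differed in opposite directions, by 2.08 and -1.97 (tissue 2 minus tissue 1, log2).

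**Figure D3:**
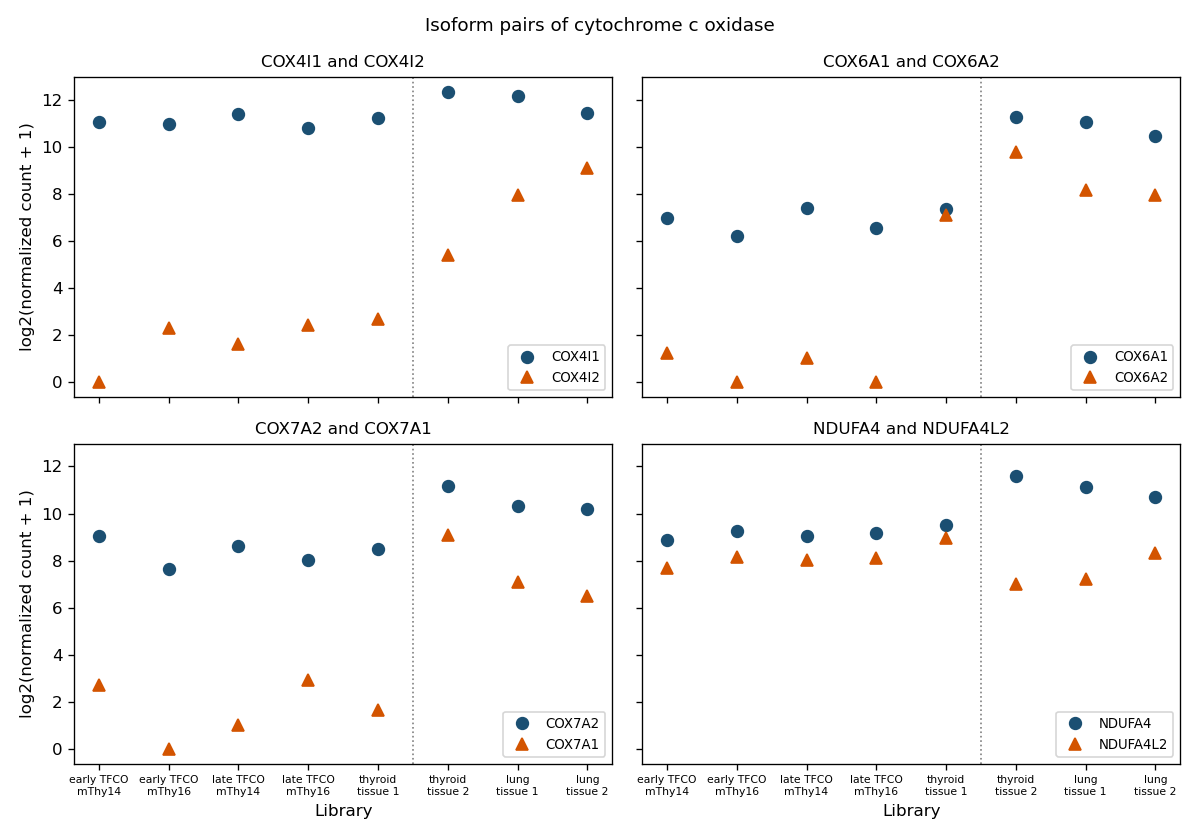
Levels of 4 pairs of complex IV in the 8 libraries as log2(normalized count + 1) (circles, first gene; triangles, second gene; dotted line, border between the library sets). COX6A2 is at 0 to 1.41 normalized counts in the 4 TFCO libraries and at 138 or more in all 4 tissues, while COX4I2 is highest in both lung tissues.

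Across both sets, few members were called. For TFCOs against both thyroid tissues, limma called 0 members higher and 1 lower, against 0.599% and 3.05% of all genes. The median log2 fold change of the members was -0.83 against 0.05 over all genes, and it lay between very unlike tissues, at -1.37 without thyroid tissue 1 and -0.32 without thyroid tissue 2. Of 65 members 6 had an unadjusted p under 0.05, against 18.6% of all genes. Without thyroid tissue 1 the counts were 1 higher and 30 lower, against 13.2% and 14.6% of all genes, and without either lung tissue 0 were called lower, against 0.918% (without lung tissue 1) and 0.898%. For TFCOs against lung, 2 members were called higher and 7 lower, against 9.83% and 13.5% of all genes. The 2 higher members were NDUFA12 (log2 fold change 2.40, standard error 0.47, limma adjusted p = 0.0170) and NDUFA6 (1.71, standard error 0.48, limma adjusted p = 0.0449). NDUFA12, which shares stretches with other genes (above), had 1545 to 2457 in TFCOs against 448 and 303 in lung, with 1758 and 863 in thyroid tissues 1 and 2. NDUFA6 had 2298 to 3695 in TFCOs against 1029 and 718 in lung, with 3109 and 1316 in the thyroid tissues. Both were thus high in thyroid tissue 1 as well, the tissue in the set of the TFCOs. The largest falls among the 7 were those of NDUFC2 (-9.46, standard error 2.25, limma adjusted p = 0.0300), NDUFV2 (-8.55, standard error 2.48, limma adjusted p = 0.0474) and COX6A2 (-7.48, standard error 1.04, limma adjusted p = 0.00573). The ratio of lung to TFCOs was 1902 for NDUFC2, with a 95% exact interval from 526 to 15710 for counting error, from 2 reads in the 4 TFCO libraries. The other 4 were ATP5MPL, COX4I2, COX6A1 and NDUFA13. All 7 belonged to the 17 members at least 10-fold lower in the set of the TFCOs. That measure uses the same TFCO and lung libraries as this comparison, so the overlap is no separate support. For COX6A2, thyroid tissue 1 was at 138, against 0.00 to 1.41 in TFCOs and 286 and 245 in lung. Without lung tissue 1, limma called 0 members higher and 0 lower, against 0.49% and 1.68% of all genes, and without lung tissue 2 also 0 and 0, against 0.422% and 1.27%. Without either thyroid tissue 10 were called higher and 25 lower, against 23.6% higher and 23.9% (without thyroid tissue 1) or 23.8% lower of all genes. For NDUFV2 the call was lost in 7 of 13 alternatives and for NDUFA6 also in 7 of 13.

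For thyroid against lung tissue over both sets, limma called 0 members higher and 0 lower, against 2.89% and 3.16% of all genes, and 16 of 65 members had an unadjusted p under 0.05, close to the 22.9% of all genes. The median log2 fold change of the members was 0.21, but it changed sign with the library left out, at 0.74 without thyroid tissue 1, -0.37 without thyroid tissue 2 and -0.011 without lung tissue 2. Without thyroid tissue 2 the counts were 13 higher and 22 lower, against 14.8% and 14.5% of all genes, a comparison that then lies wholly between the sets. Among members with both thyroid tissues above both lung tissues, the log2 fold change was largest for NDUFA12 (log2 fold change 1.74, standard error 0.47, limma adjusted p = 0.0788) and NDUFV1 (1.52, standard error 0.46, limma adjusted p = 0.106). They lay below both lung tissues for COX4I2 (-4.48, standard error 1.20, limma adjusted p = 0.0773) and COX6B2 (-2.49, standard error 1.19, limma adjusted p = 0.269).

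Passage was compared within 1 set, since all 4 TFCO libraries belong to it. The fit took its spread from all 8 libraries, however, and so also from the 2 thyroid tissues, which lie in different sets. Standard errors are therefore large for members that follow the sets (2.73 for NDUFA7), and a lack of small p-values does not show a lack of change. A fit on the TFCO libraries alone also called 0 members in each direction. Late against early TFCOs gave 0 members higher and 0 lower with limma, as for all genes tested (0% in each direction), and 0 members had an unadjusted p under 0.05, against 1.13% of all genes. The median log2 fold change of the members was 0.04 against -0.02 over all genes, and the median level of the members differed between the lines of a passage by an SD of 0.23. With the line as a replicate block, 0 members were called and 0 had an unadjusted p under 0.05. Late libraries lay above early ones in both lines for 19 of 65 members, against 25% of all genes, and below in both for 12, against 26.7%. Of complex I, 9 genes were above and 10 below in both lines, and of complex IV 6 and 1. The largest log2 fold changes without overlap of the passage groups were those of NDUFS5, at 21.1 and 12.9 in early and 31.2 and 34.7 in late TFCOs (log2 fold change 0.95, standard error 1.31), and NDUFA11, at 30.9 and 23.8 against 37.5 and 44.7 (0.58, standard error 1.45). In the other direction were NDUFA9, at 42.2 and 46.5 in early and 1.04 and 40.2 in late TFCOs (-2.30, standard error 2.17), and NDUFA10, at 977 and 891 against 817 and 667 (-0.34, standard error 0.35). The limma adjusted p was 1.00 for all 4. NDUFA9 was counted with 30 reads at early and 1 at late passage in mThy14, and with 47 and 36 in mThy16.

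**Figure D4:**
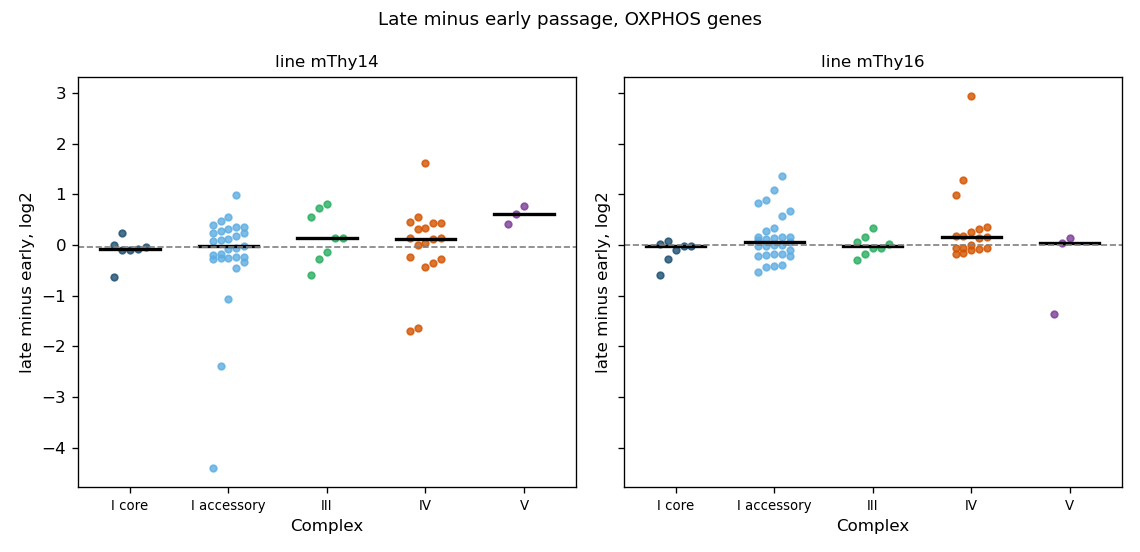
Late minus early log2 difference of the 65 members in lines mThy14 (left) and mThy16 (right), by complex (points, genes; black bars, medians; dashed line, median of all genes tested). Medians over all members are 0.08 and 0.03. The lowest point in mThy14 is NDUFA9 at -4.40 and the highest in mThy16 is COX7A1 at 2.95, both genes of few reads in TFCOs.

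The 2 lines were compared over both passages, with no test, since each is 1 culture. Both libraries of mThy14 lay above both of mThy16 for 27 of 65 members, against 29.1% of all genes, and below for 12, against 26.4%. The median difference was 0.18 (log2, mThy14 minus mThy16) against 0.04 over all genes. NDUFB11 of the membrane arm of complex I had 1234 and 1029 in mThy14 (early and late) against 444 and 537 in mThy16 (2.31-fold higher), NDUFA1 2001 and 1762 against 1051 and 798 (2.05-fold), and COX7A2 536 and 396 against 202 and 258 (2.01-fold). These 3 were chosen after their values were seen. NDUFAB1, the mitochondrial acyl carrier protein that complex I also holds, differed the other way, at 1169 and 851 against 1711 and 1795. The same lines differed in the thyroid follicular markers, which took 1.24% and 0.743% of the counts in mThy14 (early and late) and 0.213% and 0.172% in mThy16. With 1 line on each side, line and animal cannot be told apart.

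Other genes of the pathway gave few calls. Of the 4 genes of complex II, 0 were called between TFCOs and thyroid tissue, and the median against thyroid tissue 1 was -0.66. SDHB, the iron-sulfur subunit, had 941 to 1116 in TFCOs and 2261 in thyroid tissue 1, whereas SDHA, the flavoprotein subunit, had 137 to 244 in TFCOs and 359 in thyroid tissue 1 against 6144 in thyroid tissue 2. Of 13 tested genes of the TCA cycle, 0 were called. In 12 of them all 4 TFCO libraries lay below thyroid tissue 1, against 25.9% of all genes, and the median was -0.92. IDH2, the NADP-dependent isocitrate dehydrogenase, was the exception, at 4248 to 6070 against 4378. Of 42 assembly factors 0 were called, with a median of -0.18, and of 76 genes of the mitochondrial ribosome 0 were called, with a median of 0.09.

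Of 12 tested carriers of electrons and energy, 2 were called lower in TFCOs than in thyroid tissue, against 3.05% of all genes. CKMT2, the sarcomeric mitochondrial creatine kinase, had 7.92 to 51.0 in TFCOs, 979 and 1566 in thyroid tissue and 157 and 256 in lung (log2 fold change -6.00, standard error 0.77, limma adjusted p = 0.0109). Against thyroid tissue 1 with the set as a term this call was lost (-5.66, standard error 0.95, limma adjusted p = 0.0662). UCP1, the uncoupling protein of brown fat, had 4.16 to 33.7 in TFCOs, 614 and 1246 in thyroid tissue and 3.35 and 1.35 in lung (-6.21, standard error 0.86, limma adjusted p = 0.0139), and was also called with the set as a term (-5.70, standard error 0.72, limma adjusted p = 0.0463). Of 11 regulators 0 were called. PPARGC1A, the coactivator PGC-1α, had 192 to 408 in TFCOs, 1300 and 616 in thyroid tissue and 77.9 and 92.3 in lung. TFAM, which packages and transcribes mitochondrial DNA, had 77.2 to 122 in TFCOs, 116 in thyroid tissue 1, 529 in thyroid tissue 2 and 482 and 377 in lung, so that it followed the library sets. The same held in opposite directions for genes of the mitochondrial genome. MT-ND1, a complex I subunit, had 450 to 1434 in TFCOs and 757 in thyroid tissue 1 against 64082, 36747 and 30358 in thyroid tissue 2 and lung. MT-ATP6 of ATP synthase had 3089 to 7999 in TFCOs and 4054 in thyroid tissue 1 against 36.0, 25.1 and 25.6.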

How the data were processed

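Bulk RNA of 8 libraries was measured. The authors deposited 1 table of normalized counts, a signal that holds read counts per gene divided by a size factor for each library. The authors' methods name a stranded polyA kit, paired-end reads, the mouse genome and DESeq2, whereas the sample labels name an adapted CEL-Seq protocol. The submitters' processing notes name BWA 0.6.2-r126 and the builds hg38 and mm10, without saying which served which library. Every value was a whole multiple of 1 step per column (within 0.02 of a whole number), and reads on genes were taken from that step.

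Values were analysed as log2(normalized count + 1), so fold changes of low genes are understated. limma 3.58.1 (R 4.3.3) was fitted with a mean-variance trend over 14703 of 16119 genes (10 or more in at least 2 libraries), with two-sided p-values adjusted by Benjamini-Hochberg and a threshold of 0.05. Passage was tested over 8 libraries and the other comparisons over 6 columns, with the passages of a line averaged on the log2 scale. An exact permutation test of 2 against 2 cannot go below 0.333 and was not run on single genes. Where the 2 tissues of a group are not separate animals, they add no spread between animals to the p-values. The pooled spread also holds differences between the 2 lines and, through the 2 thyroid tissues, between the library sets. The fit with the library set as a term is different. Each thyroid tissue is then alone in its set and is fitted exactly. Its spread comes only from the TFCO lines and the lung tissues, and thyroid tissue is assumed to vary like them. Libraries of 1 line deviated together (r = 0.477 between the line differences at late and early passage, across 14703 genes), so the replicate block pairs them by line.

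Members, lists and the rule for named genes were chosen with earlier results of these data known. Named with all values were the isoform pairs of complex IV, the NDUFA4 pair, NDUFV1, UQCRC1 and COX4I1, members past the threshold (the 3 largest falls and rises where over 6), or otherwise the 2 largest changes each way without overlap, and genes of the carrier, complex II and regulator lists past the threshold; others serve as examples and were chosen after their values were seen. Genes were matched to GENCODE M21 (65 of 65 members). The planned count test was not run, because the values were not entered as counts. On simulated data the fit was tested with known changes of 4- and 8-fold. Those data held no library sets, so the test does not give the power of the comparisons made here. Values of some single genes are not reported here, though counts and medians over the lists include them.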

Additional observations from a re-analysis of the deposited data

Results flagged for a closer look

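The change from early to late passage had opposite signs in the 2 lines for 3 groups of members, and the difference between the lines was not tested, since each line has 1 library per passage. For complex I as a whole, the median late minus early log2 difference was -0.0508 in mThy14 and 0.00399 in mThy16. For its accessory genes, it was -0.0256 in mThy14 and 0.0692 in mThy16. For complex III it was 0.141 in mThy14 and -0.00938 in mThy16. No group of samples held 4 or more libraries, so single libraries were not examined for standing apart within a group.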

How the results depend on the processing

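Leaving out 1 library at a time gave 0 to 1 members called higher and 0 to 30 called lower for TFCOs against thyroid tissue (30 without thyroid tissue 1, 0 without either lung tissue), 0 to 10 higher and 0 to 25 lower for TFCOs against lung, and 0 to 13 higher and 0 to 22 lower for thyroid against lung (both highest without thyroid tissue 2). The median log2 fold change of members then ran from -1.37 (without thyroid tissue 1) to -0.32 (without thyroid tissue 2) for TFCOs against thyroid tissue, from -0.89 (without lung tissue 2) to -0.36 for TFCOs against lung, from -0.37 (without thyroid tissue 2) to 0.74 (without thyroid tissue 1) for thyroid against lung, and from -0.0079 (without mThy16 at early passage) to 0.16 for passage. In these fits a lone library was assumed to vary like the other groups. A fit without lung called 0 members lower in TFCOs than in thyroid tissue. Against lung, members called lower were 4 with no filter, 4 with quantile normalization and 2 with no trend, and members called higher were 1 with equal totals and 1 with no trend. For thyroid against lung, a pseudocount of 8 gave 1 lower and quantile normalization 1 higher. The cause of these differences was not tested.

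Passage gave 0 calls in each direction in all 15 alternatives, the line as a replicate block included (median 0.04). The tissue numbers share only a number (r = -0.07), and a replicate block on them gave 0 calls for thyroid against lung, with a median of 0.21. The median against thyroid tissue 1 alone kept its sign in all 8 alternatives and moved by less than the spread of the lines. Quantile normalization moved the median of all genes from 0.05 to 0.17 against thyroid tissue, from 0.05 to 0.32 against lung and from 0.03 to 0.14 between the tissues, equal totals to -0.08 against lung, and the medians of the members relative to all genes kept their sign. edgeR on recovered reads was not run. With 2 libraries per group and as few as 0 to 16 reads per library of ATP5MPL, NDUFC2 and other members in the set of the TFCOs, small differences of these members were not detectable.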
